A study of Mus musculus with 27 samples.

Results

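Krt8, Krt18, Krt19, Cdx2, Gata3, Tfap2c, Eomes, Hand1, Tead4 and Elf5 were followed through every array of a series of RNA interference experiments in mouse embryonic stem (ES) cells. These 10 genes mark or build the trophectoderm. They were taken by symbol from the deposited expression table, as 10 of the 19938 genes that had a probeset with a single symbol. Each had 1 such probeset and none had a probeset shared with another gene. Of the 10, 9 had a mean log2 value of at least 6 over all arrays and entered the tests. Elf5, with a mean of 5.72, did not.

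The trophectoderm is the outer epithelium of the blastocyst, which gives rise to the placenta, while ES cells come from the inner cell mass. TEAD4, with its coactivator YAP1, switches on Cdx2 and Gata3 in outer cells, and Hippo signalling blocks this in inner cells. TFAP2C acts early in the same lineage, EOMES and ELF5 maintain trophoblast stem cells, and HAND1 drives trophoblast giant cell formation. Keratin 8 pairs with the type I keratins 18 and 19 to form the filaments of simple epithelia, of which the trophectoderm is the earliest.

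The cells were 3 mouse ES cell lines, grown with leukaemia inhibitory factor on fibroblast feeders that were depleted on gelatin. PGK12.1 is female, of mixed 129 and PGK origin, WD44 a male line from BL6 blastocysts, and the line labelled E14 is described as a male Cast/BL6 hybrid. Cells received 100 pmol of small interfering RNA (siRNA) for 48 h, either scrambled (control) or against MOF, MSL1 or NSL1. In PGK12.1, MOF was targeted in experiments 1, 2 and 3 (3 arrays, 3 controls), MSL1 in A, B and C (3 arrays), NSL1 in C, D and E (3 arrays), and MOF together with MSL1 in D and E (2 arrays, with 50 pmol of Msl1 siRNA), against 5 controls of A to E. Experiments 1 and 2 had a repeat round of 400 pmol for 24 h in both control and knockdown. MOF was also targeted in WD44 (2 arrays, 2 controls) and in E14 (2 arrays, 2 controls). MOF, encoded by Kat8, is an acetyltransferase of histone H4 that works in the MSL complex, in which MSL1 is a scaffold, and in the NSL complex. The label NSL1 does not say which gene was targeted, Kansl1 of the NSL complex or the kinetochore gene Nsl1, so the name stands for the label. The labels do not say that experiments were separate cultures, so the p-values measure the spread between these arrays, which may be technical.

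The 27 arrays fell into 6 sets by their median log2 value, between 6.22 and 7.96, with WD44 highest at 7.89 to 7.96. Levels set across these sets therefore carry a difference of scale, and differences were taken within an experiment. All 9 ES cell markers lay above the array median on every control array. Kat8 was at 38.7% to 48% of control after MOF knockdown in PGK12.1, 51.8% to 60.3% in WD44, 59% to 66.4% in E14 and 52.8% to 56.3% in the double knockdown. Msl1 was at 42.9% to 56.3% of control after MSL1 knockdown and at 71.2% to 74.8% in the double knockdown. In the arrays labelled NSL1, Nsl1 was at 107% to 120% of control, and the probesets of Kansl1 disagreed, at 80.6% to 92.8% and 129% to 168%, so these arrays give no clear check of the target. Knockdowns C of MSL1 and NSL1 share control array C, and those of NSL1 and of the double knockdown share control arrays D and E.

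The promoters of 4 of the genes are shown as a description, and no result rests on them. They are those of the keratin pair Krt8 and Krt18, which are neighbours, and of the factors Gata3 and Eomes, both called after NSL1 knockdown. Sequences are the 250 bases before a transcription start listed in RefSeq (GRCm38.p6), read 5′ to 3′ on the strand of the gene. For Gata3 that start lies inside the annotated gene (chr2:9857078-9887953), and for Eomes it lies within a few bases of the gene's first base at 118478186. Capitals mark matches, on either strand, to 5 motifs. The TEAD motif searched was GGAATG, held by 12.6% of 32851 promoter windows of this length. The AP-1 motif was TGANTCA, held by 6.75%. The TFAP2 motif was GCCNNNGGC, held by 13.7%. The GATA motif was AGATAA, held by 9.99%. The GC box was GGGCGG, held by 32.7%.
Krt8, chr15:102004343-102004592, minus strand: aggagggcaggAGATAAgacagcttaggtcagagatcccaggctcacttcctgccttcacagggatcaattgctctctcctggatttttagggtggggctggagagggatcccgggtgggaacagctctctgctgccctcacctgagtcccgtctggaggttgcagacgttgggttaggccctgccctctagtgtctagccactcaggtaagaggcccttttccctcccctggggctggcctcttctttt
Krt18, chr15:102027966-102028215, plus strand: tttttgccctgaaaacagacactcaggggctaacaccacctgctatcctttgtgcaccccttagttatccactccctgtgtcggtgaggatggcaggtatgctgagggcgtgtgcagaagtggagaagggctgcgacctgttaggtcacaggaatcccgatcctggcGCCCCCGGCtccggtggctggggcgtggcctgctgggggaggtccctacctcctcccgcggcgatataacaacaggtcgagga
Gata3, chr2:9878601-9878850, minus strand: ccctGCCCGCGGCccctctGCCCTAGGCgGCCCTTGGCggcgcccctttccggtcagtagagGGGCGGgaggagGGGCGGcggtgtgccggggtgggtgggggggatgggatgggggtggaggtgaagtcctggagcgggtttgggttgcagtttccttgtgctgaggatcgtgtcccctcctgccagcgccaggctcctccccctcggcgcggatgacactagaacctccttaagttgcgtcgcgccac
Eomes, chr9:118477939-118478188, plus strand: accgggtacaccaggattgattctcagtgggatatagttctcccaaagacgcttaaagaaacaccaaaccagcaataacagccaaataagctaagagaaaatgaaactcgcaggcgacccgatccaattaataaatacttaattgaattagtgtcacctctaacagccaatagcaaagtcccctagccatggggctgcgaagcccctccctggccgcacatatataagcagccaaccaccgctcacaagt
Krt8 (chr15:101996711-102004342, minus strand) and Krt18 (chr15:102028216-102032026, plus strand) lie head to head, with 23873 bases between them. The Krt8 window held 1 GATA match and the Krt18 window 1 TFAP2 match, 83 bases before the start. The Gata3 window held 3 TFAP2 matches, which do not overlap, and 2 GC boxes, and the Eomes window held none of the motifs. None of these 4 windows held GGAATG or TGANTCA. Windows were found for 6 of the 10 genes, and of the other 2, Cdx2 held 1 TFAP2 match and 1 of 2 windows of Elf5 held 1 TEAD match. A match is a description of the letters.

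Levels of the keratins differed far more between lines and sets of experiments than between knockdown and control. Krt8 in control arrays was 7.66 and 7.61 (log2) in PGK12.1 experiments 1 and 2, 10.15 in experiment 3, 9.37, 9.25 and 8.90 in A to C, 9.11 and 9.18 in D and E, 12.84 and 12.76 in WD44, and 9.70 and 9.88 in E14. WD44 was highest and experiments 1 and 2 were lowest, with no overlap with the other sets. Relative to its array median, Krt8 lay 4.86 to 4.95 higher in WD44, 2.92 to 3.12 higher in E14, 3.68 higher in experiment 3 and 1.38 to 1.39 higher in experiments 1 and 2.

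WD44 was also highest in Krt18 and Krt19, followed by experiment 3. Krt18 lay 4.15 to 4.28 above the array median in WD44 controls, 2.80 in experiment 3, 1.90 to 2.07 in E14, and 0.58 to 1.41 in the other PGK12.1 controls. Krt19 lay 1.96 to 2.44 above the median in WD44, 1.77 in experiment 3, and -0.09 to 0.58 in all other controls. Experiment 3 therefore stood apart from experiments 1 and 2 of the same line in all 3 keratins. It differed from them in having a single round of siRNA, and the 2 cannot be told apart from other differences between these sets. In bulk RNA of this kind, more cells of a type and more RNA per cell cannot be told apart either.

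The factors did not follow the keratins across sets. Cdx2, the caudal homeobox factor that specifies trophectoderm, lay 2.13 to 2.28 above the array median in controls D and E and 1.32 to 1.99 in A to C, against -0.40 to -0.005 in experiments 1 to 3 of the same line. Its WD44 controls lay at 0.26 to 0.38 and its E14 controls at 0.54 to 0.55. Tead4 was highest in controls A to E, at 2.89 to 3.03, followed by E14 at 2.73 to 2.77, and lowest in experiments 1 and 2, at 1.17 to 1.31. Gata3 was likewise highest in A to E, at 1.96 to 2.38, and lowest in E14, at 0.31 to 0.47.

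Eomes was highest in the male lines and Hand1 in WD44. Eomes lay 1.93 to 2.17 above the median in E14 and 1.62 to 1.84 in WD44, whose ranges do not overlap, and 0.17 to 1.06 in all PGK12.1 controls. Hand1 lay 0.85 to 0.86 above the median in WD44 and -0.07 to 0.61 elsewhere. Tfap2c was lowest in A to E, at 1.96 to 2.12, and highest in E14 and experiment 3, at 3.08 to 3.15. Elf5 lay 0.94 to 1.42 below the array median in all controls. By the mean of the controls in each set, 8 or 9 of the 10 genes lay above the array median. These levels are a description, since line, set and array scale change together.

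**Figure D1:**
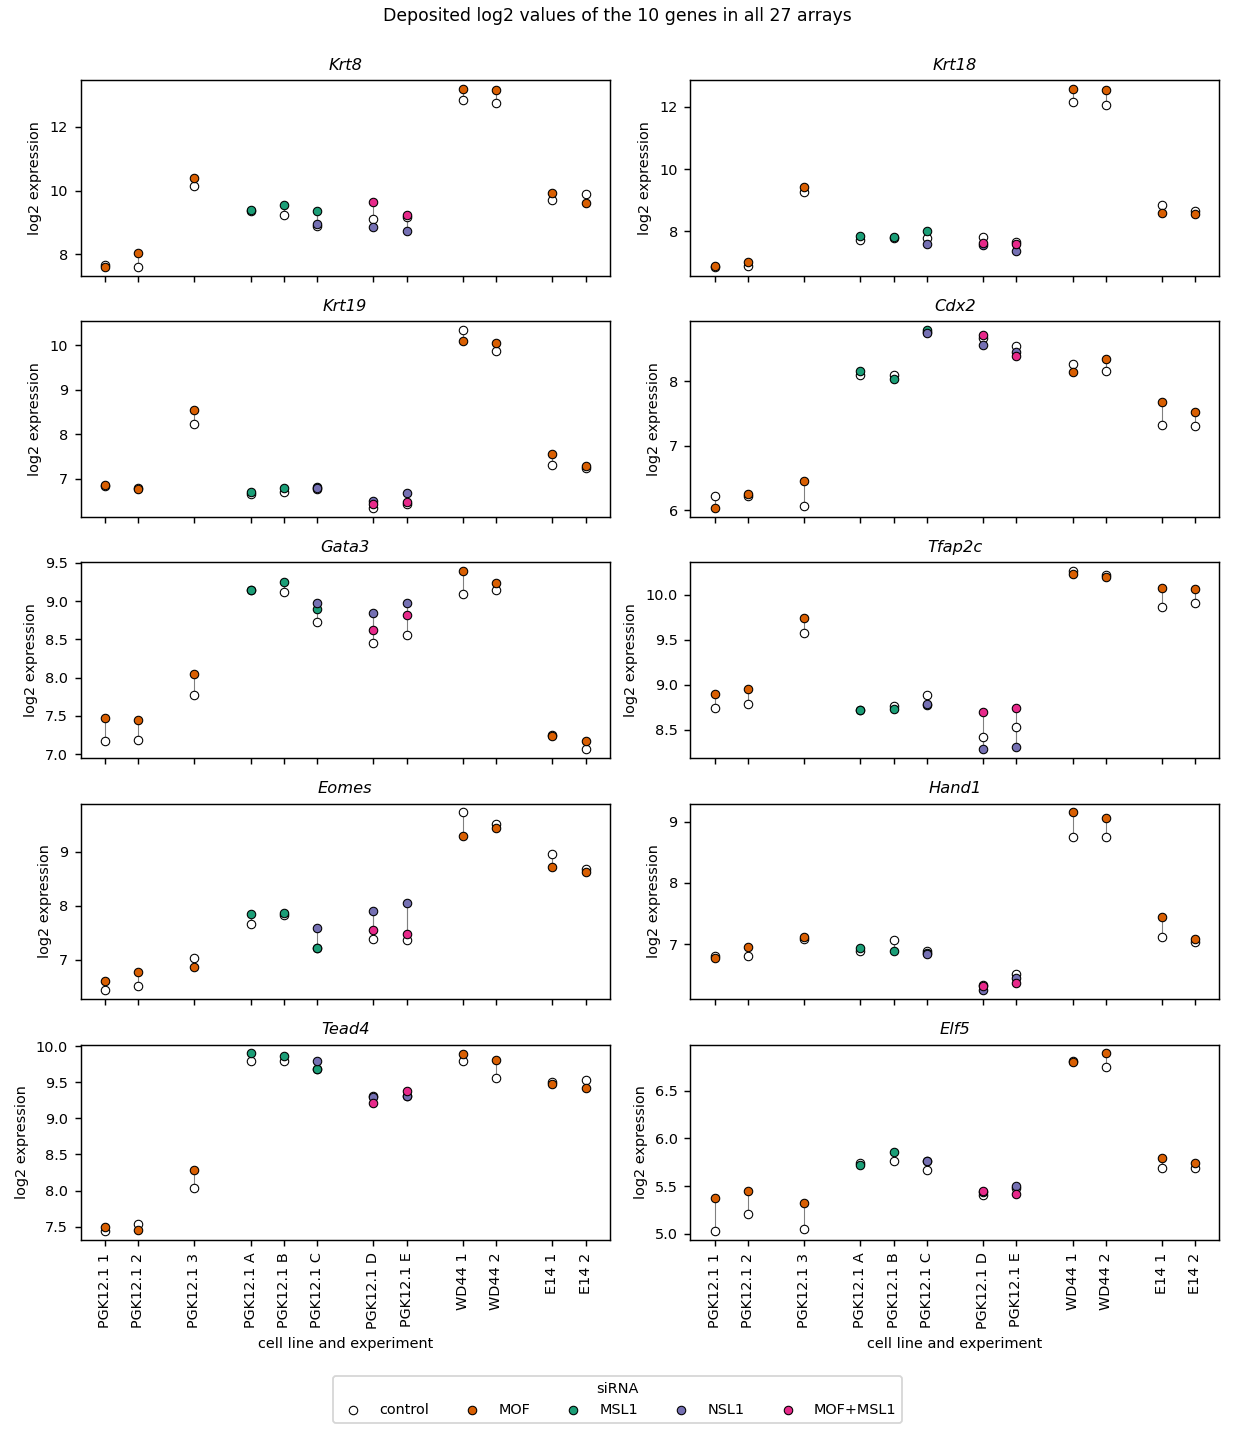
Deposited log2 values of each gene (y axis) on all 27 arrays, by cell line and experiment (x axis); open points are controls, filled points knockdowns coloured by siRNA target, and lines join arrays of 1 experiment. The keratins lie highest in WD44 (Krt8 at 12.76 to 13.18), and steps between sets exceed the differences within experiments.

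Krt18, the type I partner of keratin 8, changed in opposite directions in different knockdowns. After MOF knockdown in WD44 its values were 12.57 and 12.55, against 12.17 and 12.05 in the controls, which do not overlap. The fitted change was 0.45 (SE 0.065; limma adjusted p = 0.00136; 1.37-fold; higher in 2 of 2 experiments). After NSL1 knockdown in PGK12.1 it was 7.58, 7.56 and 7.37, against 7.79, 7.80 and 7.64 in controls C to E. It fell in 3 of 3 experiments, with a fitted change of -0.25 (SE 0.051; limma adjusted p = 0.00102; 0.84-fold). Every NSL1 array lay below all 3 of its controls. Both calls held without the experiment as a block (adjusted p = 0.0167 and 0.00581). The WD44 call was lost in a fit on the 4 WD44 arrays alone (adjusted p = 0.219).

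In the other knockdowns Krt18 did not pass the test. In E14 it was 8.57 and 8.54 after MOF knockdown against 8.85 and 8.66, lower in 2 of 2 experiments (change -0.20, 95% interval -0.34 to -0.06, limma adjusted p = 0.0698). Krt18 passed there with a mean log2 of at least 7 (limma adjusted p = 0.0496) and with array weights (limma adjusted p = 0.0489). In PGK12.1 its change after MOF knockdown was 0.09 (-0.03 to 0.20, limma adjusted p = 0.261). After MSL1 knockdown it was 0.12 (limma adjusted p = 0.452) and in the double knockdown -0.11 (limma adjusted p = 0.329).

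Keratin 8 showed wide spread among experiments of 1 target. Its differences from control were 0.02, 0.29 and 0.47 after MSL1 knockdown, 0.05, -0.26 and -0.46 after NSL1 knockdown, -0.05, 0.42 and 0.25 after MOF knockdown in PGK12.1, and 0.52 and 0.05 in the double knockdown. None of the 6 fitted changes passed the test. In WD44, where both experiments moved up (0.34 and 0.40), the change was 0.37 (SE 0.14; limma adjusted p = 0.0924). After NSL1 knockdown it was -0.24 (SE 0.11; limma adjusted p = 0.0946), and without the block it was -0.32 and passed (adjusted p = 0.0349).

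Krt19 passed in none of the 6 comparisons either. Its fitted changes ran from -0.03 in WD44, where the experiments went opposite ways (-0.24 and 0.19), to 0.15 in E14. It was higher than its control in 3 of 3 NSL1 experiments, at 0.02, 0.15 and 0.23 (change 0.13, limma adjusted p = 0.193), while Krt18 was lower in the same arrays. Across the 15 differences from control, Krt8 and Krt18 had the same sign in 10 and correlated at Pearson r = 0.55. Without the NSL1 arrays r was 0.33 over 12 differences. Points share control arrays, so these values are a description.

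Gata3, a zinc finger factor that acts beside Cdx2 in trophectoderm, rose with MOF and with NSL1 knockdown in PGK12.1. After MOF knockdown it was 7.47, 7.45 and 8.05, against 7.17, 7.19 and 7.77, so the 3 differences were nearly equal at 0.30, 0.26 and 0.28. The groups overlap because experiment 3 lay higher in both. The fitted change was 0.28 (SE 0.057; limma adjusted p = 0.00275). After NSL1 knockdown Gata3 was 8.97, 8.85 and 8.98, against 8.73, 8.46 and 8.55, with no overlap, and the change was 0.33 (SE 0.055; limma adjusted p = 0.000188). Without the block neither passed (0.28, adjusted p = 0.27, and 0.13, adjusted p = 0.466). For NSL1 that fit also sets the arrays against controls A and B, at 9.14 and 9.12.

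Gata3 lay above its control in 13 of 15 pairs of knockdown and control, at 0 in 1 and at -0.01 in 1. The 15 pairs come from 12 experiments, with controls C, D and E each in 2 pairs. In the double knockdown its change was 0.18 (limma adjusted p = 0.12) and in WD44 0.20 (limma adjusted p = 0.0782), from differences of 0.29 and 0.10. After MSL1 knockdown it was 0.13 (limma adjusted p = 0.466), and in E14 0.05 (limma adjusted p = 0.767).

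Eomes, a T-box factor of trophoblast stem cells that also acts in early mesoderm, had the largest change of the 10 genes. After NSL1 knockdown it was 7.58, 7.90 and 8.04, against 7.22, 7.38 and 7.36 in controls C to E, with no overlap. The differences were 0.36, 0.52 and 0.68, and the fitted change was 0.52 (SE 0.082; limma adjusted p = 0.000112; 1.44-fold). Without the block it was 0.35 and did not pass (SE 0.15, adjusted p = 0.0912). That fit also sets the NSL1 arrays against controls A and B, at 7.66 and 7.83. In the male lines Eomes was below its control in 4 of 4 experiments, at -0.43 and -0.08 in WD44 and -0.24 and -0.07 in E14. Neither passed (limma adjusted p = 0.114 and 0.401).

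Tfap2c, an AP-2 factor of early trophectoderm and germ cells, rose after MOF knockdown and fell after NSL1 knockdown. Its values after MOF knockdown in PGK12.1 were 8.90, 8.95 and 9.74, against 8.74, 8.79 and 9.57, with differences of 0.16, 0.16 and 0.17 (change 0.16, SE 0.045, limma adjusted p = 0.0166). In the double knockdown they were 8.69 and 8.75, against 8.42 and 8.53 (change 0.27, SE 0.053, limma adjusted p = 0.00911). After NSL1 knockdown they were 8.78, 8.29 and 8.30, against 8.89, 8.42 and 8.53 (change -0.14, SE 0.044, limma adjusted p = 0.0172). In D and E the 2 double knockdown arrays lay above both controls and the 2 NSL1 arrays below both.

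These 3 changes of Tfap2c were small and rested on the pairing. Without the block the adjusted p was 0.457, 0.734 and 0.125, and on the arrays of each comparison alone it was 0.108, 0.0871 and 0.0608. The MOF call was also lost when each array was centred on its median (adjusted p = 0.0822). Leaving out 1 array ended the MOF call each time (6 of 6, adjusted p = 0.052 to 0.069), the double knockdown call in 3 of 4 cases (up to adjusted p = 0.114, without double knockdown array D) and the NSL1 call in 4 of 6 (up to adjusted p = 0.119, without control E). In E14 both experiments moved up, at 0.21 and 0.15 (change 0.18, limma adjusted p = 0.0572), and in WD44 they lay at -0.03 and -0.02.

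Hand1, a basic helix-loop-helix factor of giant cells that is also expressed in mesoderm, rose after MOF knockdown in WD44. It was 9.15 and 9.06, against 8.75 in both controls, and the change was 0.36 (SE 0.074; limma adjusted p = 0.00946). Without the block it did not pass (adjusted p = 0.446), nor on the WD44 arrays alone (adjusted p = 0.219), nor with any of the 4 arrays left out (adjusted p = 0.0505 to 0.186). In E14 the differences were 0.33 and 0.04 (limma adjusted p = 0.14), so that Hand1 was above its control in 4 of 4 male experiments. In PGK12.1 its fitted changes lay between -0.08 and 0.05.

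Cdx2 and Tead4 passed in none of the 6 comparisons. Cdx2 differences in E14 were 0.35 and 0.23 (change 0.29, 95% interval 0.07 to 0.51, limma adjusted p = 0.102), while after MOF knockdown in PGK12.1 they ran from -0.18 to 0.39. Tead4 changes ran from -0.08 in E14 to 0.18 in WD44. Elf5, below the filter, was higher after MOF knockdown in PGK12.1 in 3 of 3 experiments, at 5.38, 5.45 and 5.32 against 5.03, 5.21 and 5.05, with no overlap. In a fit with no filter its change was 0.29 (SE 0.051; limma adjusted p = 0.00184), at values in the low end of the array. Without the block it did not pass (adjusted p = 0.0935).

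**Figure D2:**
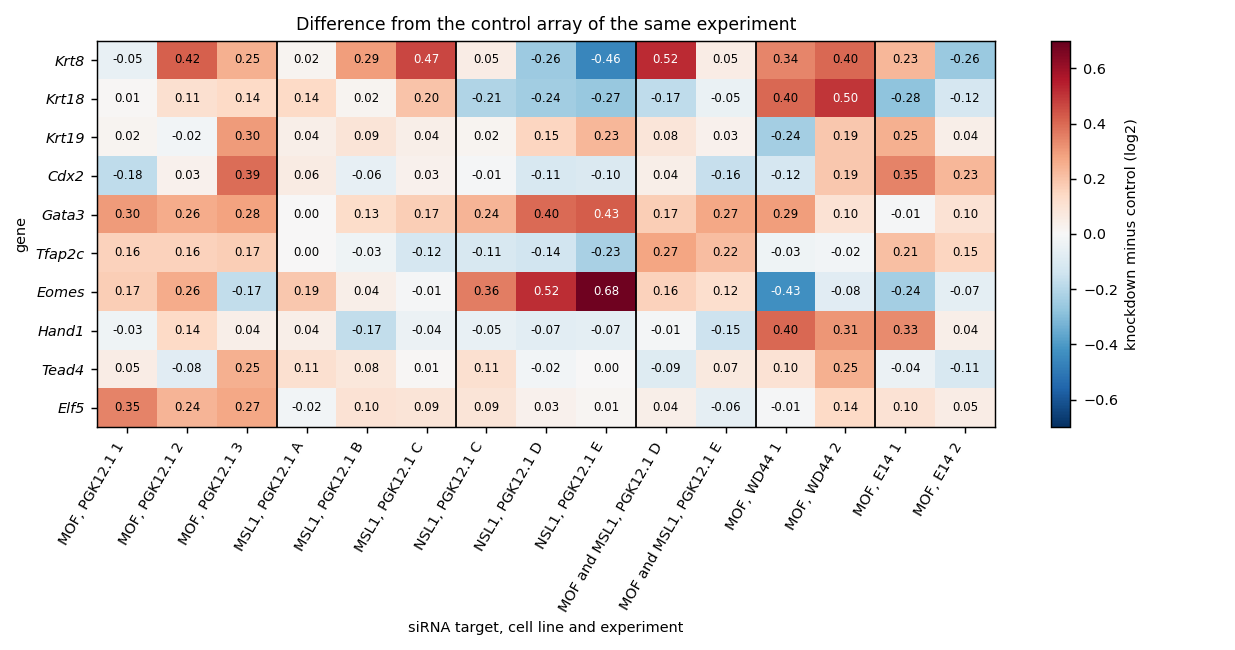
Knockdown minus control of the same experiment in log2 units (colour and number) for each gene (rows) in the 15 pairs of arrays (columns, by siRNA target, line and experiment). Gata3 is above 0 in 13 of 15, Eomes is highest in the NSL1 columns (0.36 to 0.68), and Krt18 is highest in WD44 (0.40 and 0.50).

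Counted by comparison, the share of these 9 genes called is set beside that of all probesets, as a description with no test of the set. After MOF knockdown in PGK12.1, 2 of 9 rose (22.2%) and none fell, where 23.4% of all tested probesets were called, 9.49% higher and 13.9% lower. After NSL1 knockdown 2 rose and 2 fell (44.4%), where 39.8% of probesets were called, 18.4% higher and 21.4% lower. After MSL1 knockdown none was called in limma, where 0.184% of probesets were (0.0983% higher, 0.086% lower), and Krt18 and Gata3 had an unadjusted p under 0.05 (0.0336 and 0.0379). In the double knockdown 1 of 9 rose (11.1%), where 3.24% of probesets rose and 3.19% fell (6.44% in all). After MOF knockdown in WD44 2 of 9 rose (22.2%), where 4.38% of probesets rose and 7.98% fell (12.4%). MOF knockdown in E14 called none of 9 in limma, where 3.6% of probesets rose and 4.73% fell (8.33%), and 4 had an unadjusted p under 0.05. Without the block the share of probesets called was 7.68% for MOF in PGK12.1, 0.0614% for MSL1, 28.3% for NSL1, 9.9% for the double knockdown, 0.608% for WD44 and 0.669% for E14.

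**Figure D3:**
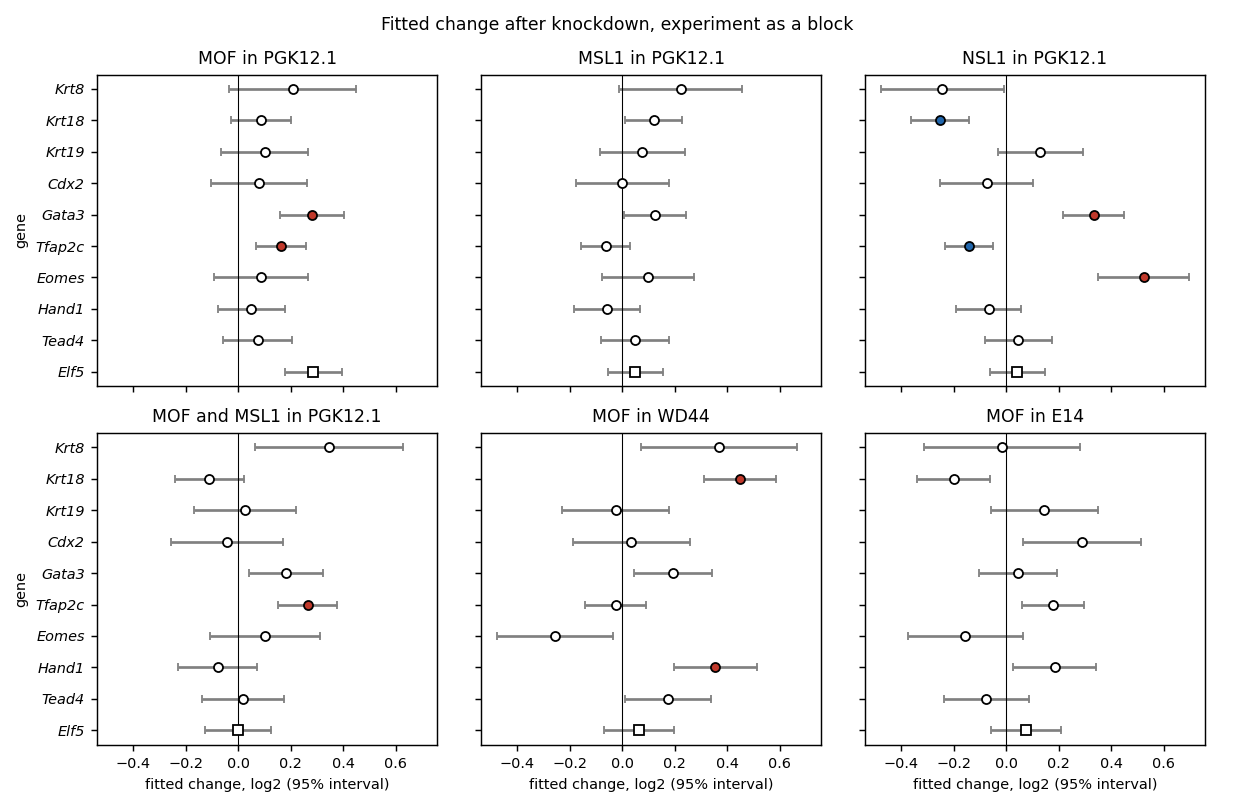
Fitted log2 change (x axis) with its 95% interval for each gene (y axis) in the 6 comparisons; filled red points rose and filled blue points fell at an adjusted p under 0.05, open points did not pass, and the square is Elf5, which was below the filter. The largest change is Eomes after NSL1 knockdown, 0.52.

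The response of Krt18 to MOF knockdown differed between the experiments of the 3 lines. The depth of knockdown differed too, with Kat8 at 38.7% to 48% of control in PGK12.1, 51.8% to 60.3% in WD44 and 59% to 66.4% in E14. Only PGK12.1 experiments 1 and 2 had the repeat round of siRNA. Line cannot be told apart from these differences. The difference between the changes was 0.36 for WD44 minus PGK12.1 (SE 0.084; limma adjusted p = 0.0369; 2.21% of probesets called) and -0.65 for E14 minus WD44 (SE 0.092; limma adjusted p = 0.00522; 1.39% called). E14 minus PGK12.1 was -0.29 (limma adjusted p = 0.083; 2.5% called). The first of these did not pass when any 1 of the 10 arrays was left out (adjusted p = 0.0523 to 0.182). It was also lost with no filter on low values (adjusted p = 0.0667), an alternative chosen after seeing the data. E14 minus WD44 did not pass without either E14 array of experiment 1 (-0.57, adjusted p = 0.111). Without the block neither passed (adjusted p = 0.328 and 0.0844), where 0.0983% and 0.0307% of probesets were called, and 0.0676% for E14 minus PGK12.1. No other of the 9 genes differed between lines in limma at this threshold. For Hand1, WD44 minus PGK12.1 was 0.31 (95% interval 0.10 to 0.51, limma adjusted p = 0.112).

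Within PGK12.1, the change after NSL1 knockdown was compared with that after each of the other targets. Against MOF knockdown, Krt18 differed by -0.34 (limma adjusted p = 0.00715), Tfap2c by -0.30 (limma adjusted p = 0.00545) and Eomes by 0.44 (limma adjusted p = 0.0211), where 16% of probesets differed. Gata3 did not differ beyond error between them (0.05, 95% interval -0.12 to 0.22). Without the block none of these 3 passed (4.07% of probesets called), and the Eomes difference was lost without 5 of 12 arrays, down to 0.31 (adjusted p = 0.0902) without either array of MOF experiment 3.

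Against MSL1 knockdown, NSL1 knockdown differed by -0.47 in Krt8 (limma adjusted p = 0.0182), -0.37 in Krt18 (0.000491), 0.21 in Gata3 (0.0326) and 0.43 in Eomes (0.00521), where 32.3% of probesets differed. Without the block 37.9% of probesets were called, the Gata3 difference turned to -0.16 and the Eomes difference did not pass (adjusted p = 0.343), while Tfap2c (-0.28, adjusted p = 0.0466) and Tead4 (-0.36, adjusted p = 0.0465) did. The Gata3 difference was also lost with no filter on low values (adjusted p = 0.059), when each array was centred (adjusted p = 0.0761) and without 8 of 11 arrays (up to adjusted p = 0.122, without either array A). The Krt8 difference was lost without 4 of 11 arrays (up to adjusted p = 0.149, without MSL1 array C). Against the double knockdown it differed by -0.59 in Krt8 (limma adjusted p = 0.00461), -0.41 in Tfap2c (7.91e-05) and 0.42 in Eomes (0.00554), where 26.5% differed. Of these only Krt8 passed without the block (12.2% called; Tfap2c adjusted p = 0.171, Eomes adjusted p = 0.277). The Krt8 difference was lost without double knockdown array D (-0.40, adjusted p = 0.15), and the Eomes difference without array E of NSL1 (adjusted p = 0.067) or of the double knockdown (adjusted p = 0.0922). These comparisons share control arrays C, D and E.

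The double knockdown differed from MSL1 knockdown alone in Tfap2c, by 0.33 (SE 0.065; limma adjusted p = 0.0393; 0.442% of probesets called). This was lost without 9 of 10 arrays, with no filter on low values (adjusted p = 0.0943) and with each array centred (adjusted p = 0.056). Without the block it turned to -0.020, and Krt18, Hand1 and Tead4 were called instead, all lower in the double knockdown, where 40.5% of probesets were called and the median of all probesets moved to -0.157. None of the 9 genes differed between the double knockdown and MOF knockdown alone in limma (0.276% of probesets called, 0.00614% without the block). Krt18 alone of the 9 had an unadjusted p under 0.05 there (0.0276). The double knockdown and the MOF experiments also differed in set, and MOF experiments 1 and 2 in the repeat round of siRNA.

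WD44 arrays also differed in fibroblast genes, beside which the rises of Krt18 and Hand1 stand. Of 10 tested fibroblast genes, 7 rose after MOF knockdown in WD44 and none fell (4.38% and 7.98% of probesets), with a median change of 0.32 against -0.02 over 13989 genes. The rest of the 15 with a probeset, Lum and Postn among them, did not reach the filter and were not tested. Acta2 (smooth muscle actin) rose by 0.97, Col1a1 by 0.38, Col5a2 by 0.33 and Col3a1 by 0.31. Without the block none of the 10 was called, where 13 of all genes rose and 78 fell. The rise of Acta2 was not particular to WD44. In E14, where Krt18 was lower, Acta2 rose by 0.55 (limma adjusted p = 0.0321). It was the 1 gene of the 10 called there (3.6% of probesets rose and 4.73% fell). Without the block it did not pass in E14 (adjusted p = 0.719). The mean of all 15 fibroblast markers, relative to the array median, was 0.15 to 0.17 in WD44 controls and 0.34 to 0.35 in WD44 knockdowns. In every other group it lay between -0.70 and -0.18. In WD44 controls Acta2 and Tagln, at 3.53 and 3.26, raised this mean most, with Col1a1 next at 1.135.

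Not all fibroblast markers were present. In WD44 controls 8 of 15 lay above the array median, against 5 or 6 elsewhere. Acta2 and Tagln were 3.53 and 3.26 above it. Dcn, Lox and Twist2 were at 0.555, 0.38 and 0.27, and lay below the array median in every other set of controls. Col3a1, Col6a3 and Pdgfrb were at -0.235, -0.545 and -0.545 in WD44. Lum and Postn, extracellular matrix genes of fibroblasts, were at -3.31 and -1.75 and lay below the array median in every set. Whether fibroblasts were present in the WD44 samples, and whether they had a part in the Krt18 and Hand1 results, was not tested. The mean of 23 epithelial junction genes was also highest in WD44, at 2.67 to 2.73 against 1.38 to 2.16 elsewhere, and that of 16 pluripotency genes was lowest, at 3.67 to 3.78 against 4.52 to 5.14.

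**Figure D4:**
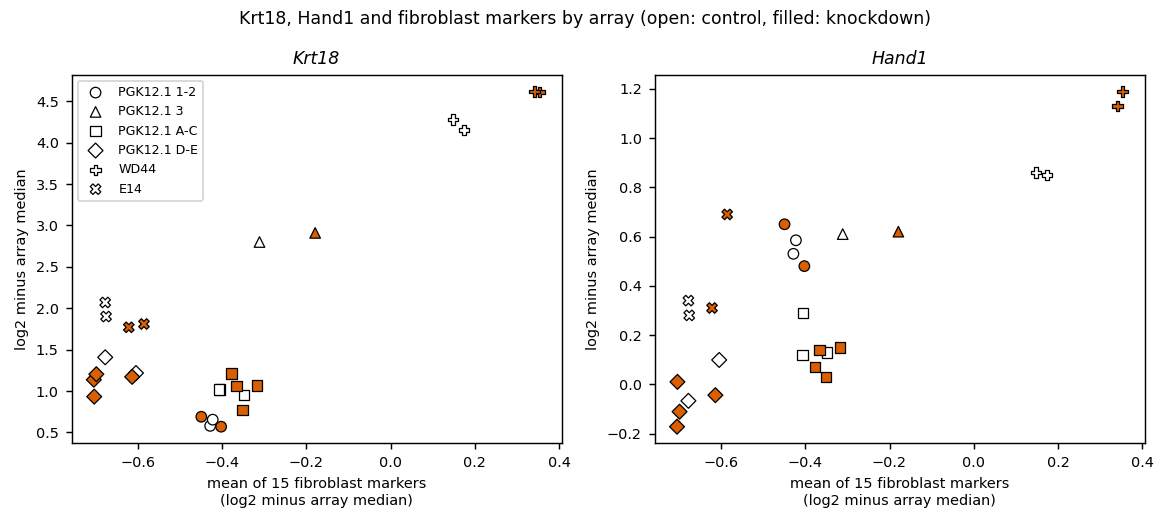
Krt18 (left) and Hand1 (right), as log2 minus the array median (y axis), against the mean of 15 fibroblast markers on the same scale (x axis), 1 point per array; open points are controls, filled points knockdowns, and shapes are sets. The 4 WD44 arrays stand apart at the upper right in both, with fibroblast means of 0.15 to 0.35. In WD44 controls Acta2 and Tagln raised this mean most.

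Among 19 other trophectoderm and trophoblast stem cell genes tested, 8 rose, none fell and 11 were not called after NSL1 knockdown, where 18.4% of all probesets rose and 21.4% fell. The list's median was 0.16 against -0.01 over all genes. Without the block 8 rose and none fell, though not all the same genes. Plet1, a surface protein of trophoblast progenitors, rose by 1.00 (SE 0.077; limma adjusted p = 1.86e-07), and Id2, an inhibitor of basic helix-loop-helix factors, rose by 0.98 (SE 0.062; limma adjusted p = 4.38e-08). Cldn4, a tight junction claudin, rose by 0.35 and Zfp655 by 0.33. Plet1 did not pass in any other comparison, with changes between -0.14 and 0.26.

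After MOF knockdown in PGK12.1, 5 of these 19 genes rose and 2 fell (3 and 2 without the block), where 9.49% of probesets rose and 13.9% fell. Aqp3, a water and glycerol channel, rose by 0.38, Id2 by 0.42 and Cldn4 by 0.28, while Bmp4 fell by 0.39. Without the block Id2 did not pass (adjusted p = 0.213). In the double knockdown 5 rose and none fell, where 3.24% of probesets rose, and without the block 3 rose and 1 fell. Cldn4 rose by 0.35. Id2 rose by 0.54 with the block, but without it the change was 0.11 (adjusted p = 0.705). MSL1 knockdown called none in limma. In WD44 4 rose and 1 fell (4.38% and 7.98% of probesets), and in E14 2 rose and 3 fell (3.6% and 4.73%). None of those in the male lines was called without the block. Cdh3, placental cadherin, rose in both male lines, by 0.27 and 0.48 (limma adjusted p = 0.013 and 0.00059), and in PGK12.1 by 0.26, which was also lost without the block (adjusted p = 0.241).

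**Figure D5:**
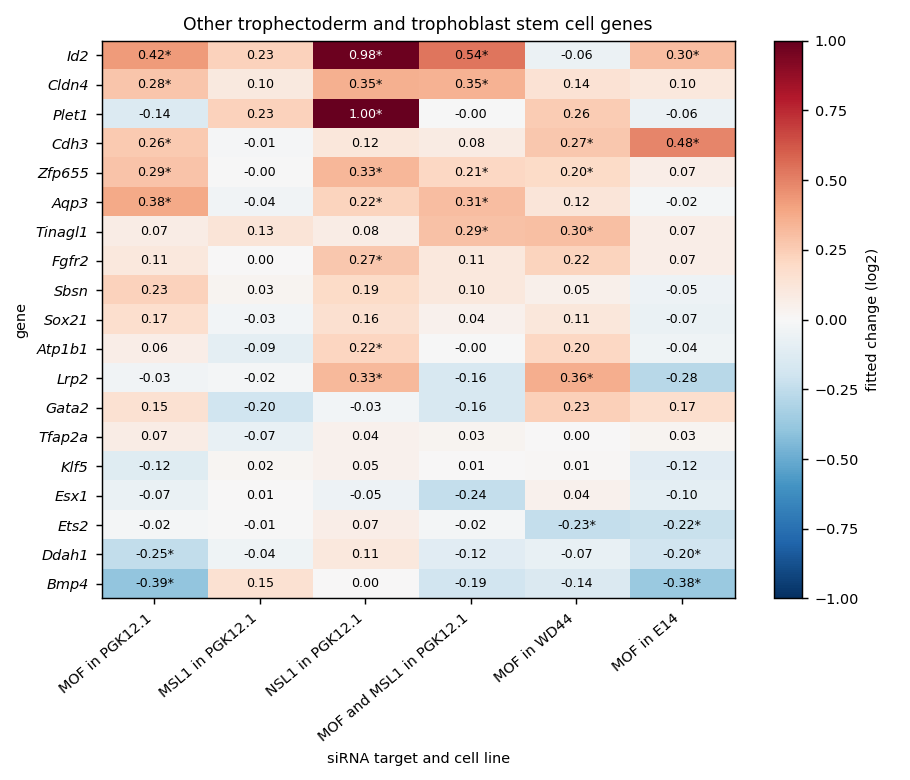
Fitted log2 change (colour and number; * marks an adjusted p under 0.05) of 19 other trophectoderm and trophoblast stem cell genes (rows) in the 6 comparisons (columns). Plet1 and Id2 after NSL1 knockdown, at 1.00 and 0.98, are the largest values, and the MSL1 column has no call.

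Genes of differentiated trophoblast were counted in the same way. Of 11 tested after NSL1 knockdown, 2 rose and none fell, where 18.4% of probesets rose. Ascl2, a factor of placental spongiotrophoblast, rose by 0.56 and Peg10, an imprinted placental gene, rose by 0.24, and the list's median was -0.07 against -0.01 over all genes. In E14 Ascl2 rose by 0.52 (limma adjusted p = 0.00145), which held without the block (adjusted p = 0.0255). In WD44 Plac1 rose by 0.41 and Pcdh12 by 0.33 (limma adjusted p = 0.0402 and 0.0432), and neither was called without the block. In PGK12.1 after MOF knockdown Rhox6 and Rhox9 rose (0.25 and 0.39) and Peg10 fell by 0.20. Without the block Rhox9 passed (adjusted p = 0.0351) and Rhox6 and Peg10 did not (adjusted p = 0.105 and 0.258). The other 4 of the 15 genes with a probeset did not reach the filter.

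The Hippo and TEAD genes act upstream of Cdx2 and Gata3. Of 17, 6 rose, 1 fell and 10 were not called after MOF knockdown in PGK12.1 (2 rose and none fell without the block), where 9.49% of probesets rose and 13.9% fell. Amotl2 rose by 0.24, Nf2 by 0.20, Amotl1 by 0.20 and Wwtr1, the YAP1 paralogue TAZ, by 0.20, of which Amotl1 and Wwtr1 were lost without the block (adjusted p = 0.402 and 0.0571). After NSL1 knockdown 7 rose, 1 fell and 9 were not called (5 and 1 without the block), where 39.8% of probesets were called. Nf2 rose by 0.37, Amotl1 by 0.33 (adjusted p = 0.137 without the block) and Amotl2 by 0.28. Nf2 and the angiomotin-like proteins hold YAP1 back from the nucleus. Tead2, a paralogue of Tead4, fell by 0.43 (limma adjusted p = 1.01e-05), while Tead4 itself lay at 0.05. Yap1 passed in none of the 6 comparisons.

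The epithelial junction genes include those of desmosomes, where keratin filaments anchor. Of 22, 6 rose and 1 fell after MOF knockdown in PGK12.1 (3 and 0 without the block), where 9.49% of probesets rose and 13.9% fell. The membrane protease St14 and the desmosomal protein Perp each rose by 0.50, and desmoplakin (Dsp) by 0.30. In WD44 4 rose and none fell (4.38% and 7.98% of probesets), led by Dsp at 0.29 and St14 at 0.30. In E14 4 rose and none fell (3.6% and 4.73%), led by Spint2 at 0.34 and Epcam at 0.50. None of those in the male lines was called without the block. After NSL1 knockdown 5 rose, with Perp at 0.70, and 2 fell, the tight junction genes Cldn3 (by 0.46) and Ocln (by 0.38), where 39.8% of probesets were called (4 and 2 without the block). Of 7 other keratins tested, Krt17 and Krt42 fell after NSL1 knockdown, by 0.36 and 0.23, and none rose. Of all probesets 21.4% fell and 18.4% rose there, and the list's median was -0.04 against -0.01 over all genes. Krt17 rose in E14 by 0.47, which did not pass without the block (adjusted p = 0.0554).

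The genes whose 15 differences ran most like those of a member were listed by Pearson correlation, as a description over points that share controls. For Krt18 they were Sync (0.88), 4932438A13Rik (0.86) and Slc35f5 (0.85). For Gata3 they were Piezo1 (0.91), Slc6a8 (0.91) and Perp (0.91), and for Eomes Sp4 (0.93), Stox2 (0.91) and Sntb2 (0.90). For Hand1 they were Mical2 (0.90) and the collagens Col11a2 (0.89) and Col3a1 (0.89), of which Col3a1 is among the fibroblast markers above. Among the members, the most opposed pair was Eomes and Hand1 (-0.64), which had the same sign in 3 of 15 differences.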

How the data were processed

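RNA from 27 samples was measured on Affymetrix arrays. The authors deposited log2 values per probeset (35556), made with Affymetrix Expression Console and RMA per the submitters' processing notes; versions and the build are not given in the sources used here. No array was left out. Their number limits the precision. Symbols came from the platform annotation, updated through RefSeq (GRCm38.p6). Probesets with a symbol and a mean log2 of at least 6 (16283) were fitted with limma 3.58.1 in R 4.3.3, which was tested on simulated data. The model held a term per knockdown and the experiment (12) as a block, leaving 9 residual degrees of freedom, with Benjamini-Hochberg adjusted p under 0.05 over all 16283. The block was used because the labels tie each knockdown to a control by number or letter; deviations from group means correlated at -0.097 to 0.867 between arrays of 1 experiment. Fits without the block held a term per group and a term for the repeat round of siRNA, leaving 16 residual degrees of freedom. They are given where they change the call of a member or of a named gene, and as counts for lists. For lists, a gene with several probesets was read from its brightest one on average. Members, lists, motifs and the model were chosen with earlier results of these data known. Genes outside the members were named by rule: in each list, up to 4 with the smallest p among those called in a comparison, and the 3 with the highest correlation with each member. Genes named beyond the rule (Rhox6, Rhox9, Yap1, the marker levels and values of a gene set beside its call elsewhere) were chosen after their values were seen. Alternatives were other scalings, filters, array weights, the arrays of 1 comparison alone, and each array left out.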

Additional observations from a re-analysis of the deposited data

Results flagged for a closer look

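The change of Krt18 after MOF knockdown differed between lines by the test of the difference itself: WD44 minus PGK12.1 was 0.36 (limma adjusted p = 0.0369) and E14 minus WD44 was -0.65 (limma adjusted p = 0.00522). Krt18 was higher in 2 of 2 WD44 experiments and lower in 2 of 2 E14 experiments. Line cannot be told apart from the depth of knockdown or, for PGK12.1, from the repeat round of siRNA. The first difference was lost with any 1 of 10 arrays left out (adjusted p = 0.0523 to 0.182), with no filter on low values (adjusted p = 0.0667) and without the block (adjusted p = 0.328). The second was lost without either E14 array of experiment 1 (adjusted p = 0.111) and without the block (adjusted p = 0.0844).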

How the results depend on the processing

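Counts are members called by limma at an adjusted p under 0.05. With no replicate block they were 0 for MOF in PGK12.1 (against 2), 2 for NSL1 (against 4), 0 for the double knockdown (against 1), 1 for WD44 (against 2), 0 for WD44 minus PGK12.1, for E14 minus WD44 (each against 1) and for NSL1 minus MOF (against 3), 1 for NSL1 minus double (against 3) and 3 for double minus MSL1 (against 1). There Gata3 in NSL1 minus MSL1 turned to -0.16 and Tfap2c in double minus MSL1 to -0.020; in these fits the median of all probesets was -0.133 and -0.157, against -0.003 and 0.006 with the block. Centring each array gave 1 for MOF in PGK12.1 and 0 for double minus MSL1. With no filter on low values, applied to differences between changes after seeing the data, the count was 0 for WD44 minus PGK12.1 and 0 for double minus MSL1. Cyclic loess gave 1 for E14 (Tfap2c), and a mean log2 of at least 7 gave 2 for E14 (Krt18 and Tfap2c). Array weights gave 3 for the double knockdown (Krt8, Gata3 and Tfap2c) and 2 for E14 (Krt18 and Tfap2c). The arrays of 1 comparison alone gave 1 for MOF in PGK12.1, 0 for the double knockdown and 0 for WD44. The cause of these differences was not tested. Leaving out 1 array gave 1 to 1 for MOF in PGK12.1, 0 to 0 for MSL1, 3 to 5 for NSL1, 0 to 1 for the double knockdown, 1 to 1 for WD44 and 0 to 0 for E14. For differences between changes it gave, in an alternative chosen after seeing the data, 0 to 0 for WD44 minus PGK12.1, E14 minus PGK12.1 and double minus MOF, 2 to 4 for NSL1 minus MOF, minus MSL1 and minus double, and 0 to 1 for double minus MSL1 and E14 minus WD44. With 2 or 3 experiments per knockdown, an array left out leaves 1 or 2 pairs.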

Other observations

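Primitive endoderm genes, of the other extraembryonic lineage of the blastocyst, were also counted. Of 14 tested, 3 rose and none fell after NSL1 knockdown, with Dab2 at 0.45 and Gata6 at 0.37, where 18.4% of all probesets rose. Without the block 2 rose, and both Dab2 and Gata6 passed. In WD44 3 rose and 1 fell (4.38% and 7.98% of probesets), and in E14 none rose and 3 fell (3.6% and 4.73%). None of those in the male lines was called without the block. Of 16 pluripotency genes, none rose and 3 fell after NSL1 knockdown, where 21.4% of probesets fell. After MOF knockdown in PGK12.1 1 rose and 3 fell, where 9.49% rose and 13.9% fell. Without the block 1 pluripotency gene fell and none rose in each of these comparisons.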
